A study of Mus musculus with 4 samples.

Results

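The replication-dependent histone genes encode the core histones H2A, H2B, H3 and H4, around which DNA is wound, and the linker histone H1. They were taken as the protein-coding genes whose GRCm38 symbol starts with Hist1h, Hist2h, Hist3h or Hist4 in GENCODE M21. This gave 67 genes of the 22013 protein-coding genes and 35580 genes measured. By class, 6 encode H1, 18 encode H2A, 18 encode H2B, 12 encode H3 and 13 encode H4. Their RNA was compared between cells with and without Mmp3, taken from subcutaneous fat. The cells belong to the stromal vascular fraction, which is what remains of adipose tissue once the fat cells are removed. Mmp3 encodes stromelysin 1, a secreted protease. All mice were wild-type C57BL/6, no treatment, age or time is given for either group, and each group, Mmp3-positive and Mmp3-negative, had 2 libraries, 4 in all, which the labels number Set1 and Set2 in each group without saying what a set is. As to how the cells were sorted, the labels name only a reagent code, and they do not tie libraries to animals. The p-values therefore rest on the spread between libraries alone, and this spread may be technical.

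Most of these genes lie in clusters, have no introns and are transcribed mainly in S phase, when new DNA must be packed. Their messages are the only known cellular mRNAs of animals that normally end without a poly(A) tail. They end in a stem-loop, which is bound by the stem-loop binding protein SLBP and is cut from the primary transcript with the help of the U7 small nuclear RNP. The RNA is degraded when DNA synthesis stops. Total RNA was depleted of ribosomal RNA here, so messages without a tail were not left out by a poly(A) selection. The extraction kit was of a type meant for fixed and embedded tissue, per the labels' protocols.

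The stem-loop was searched as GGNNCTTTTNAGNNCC, 16 letters on the transcript strand, and forms with other letters were not searched. It was found in a transcript of 44 of the 67 genes (65.7%) and of 78 of 21936 protein-coding genes searched (0.356%). In each gene's transcript with the highest TPM it was found for 4 of 6 H1 genes, 11 of 18 H2A genes, 9 of 18 H2B genes, 8 of 12 H3 genes and 11 of 13 H4 genes, 43 in all. Of the 24 without it there, 13 have a transcript model that ends at the stop codon, so any stem-loop lies outside the model. The other models are longer than their coding sequence, such as that of Hist2h2be with 2620 bases, 381 of them coding. The forms that follow are of genes whose values are described further on, 1 or 2 per class, with the stem-loop in capitals and at most 5 bases on each side.
Hist1h1e: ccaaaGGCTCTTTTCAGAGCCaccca
Hist1h1c: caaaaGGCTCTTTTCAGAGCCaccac
Hist2h2aa2: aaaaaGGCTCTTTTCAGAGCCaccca
Hist2h2ac: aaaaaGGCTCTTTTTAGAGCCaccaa
Hist1h2bb: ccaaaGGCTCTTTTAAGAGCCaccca
Hist1h3b: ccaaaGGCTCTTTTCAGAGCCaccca
Hist1h3c: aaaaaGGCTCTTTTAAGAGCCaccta
Hist1h4m: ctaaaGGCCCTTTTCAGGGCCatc
Hist1h4b: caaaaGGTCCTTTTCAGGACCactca
On GRCm38 these lie, in the same order, at chr13:23621777-23621802 (minus strand), chr13:23739507-23739532 (plus), chr3:96239779-96239804 (minus), chr3:96220413-96220438 (minus), chr13:23747198-23747223 (plus), chr13:23752815-23752840 (plus), chr13:23745042-23745067 (minus), chr13:21812124-21812147 (plus) and chr13:23757361-23757386 (plus). The letters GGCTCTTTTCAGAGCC were carried by 25 of the 43 genes, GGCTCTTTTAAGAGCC by 6 and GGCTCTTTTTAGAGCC by 1, Hist2h2ac. All 11 H4 genes with a match had another stem: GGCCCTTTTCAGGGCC in 7, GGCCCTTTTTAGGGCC in 2 and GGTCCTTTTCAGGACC in 2. No H1, H2A, H2B or H3 gene with a match had an H4 form. A match describes letters only, and it was not used to choose genes or to compare the groups.

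The annotated transcripts often run past the place where the mature message is cut. The median length after the stem-loop was 151 bases over the 43 genes, and 22 of them had more than 100 bases after it. For 62 of the 67 genes the annotation holds 1 transcript. A transcript of more than 1 exon is listed for 5 genes, Hist1h2bc, Hist1h2be, Hist1h2bp, Hist1h2bq and Hist1h2br.

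Members of a class are so alike that reads cannot always be placed. A gene's share of unique words, meaning 31-base stretches of its transcripts found in no other gene of the transcript set on either strand, had a median of 44.8% over the 67 genes. The class medians were 96.2% for H1, 25.1% for H2A, 46.6% for H2B, 39.0% for H3 and 52.1% for H4. In 38 genes the share was under 50%, and for Hist2h2aa2 it was 0%. kallisto divides reads among such copies by estimation, so single H2A, H2B, H3 and H4 genes are uncertain and class sums are given beside them.

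The 4 libraries held 17693755 to 20286221 estimated counts, and 12697 to 14382 genes had at least 10. Mmp3 itself was at 106 and 131 CPM (counts per 1000000 after TMM scaling) in the negative libraries and at 4161 and 3409 CPM in the positive ones. By edgeR's quasi-likelihood test over 14185 genes its log2 fold change was 4.999 (SE 0.21, adjusted p = 0.00793), so it is higher in the libraries labelled positive, as the labels say. The 5 fibroblast markers had counts in every library, with sums of 7190 to 12060 CPM. Protein-coding genes held 45.5% and 83.6% of the deposited TPM in the negative libraries and 78.3% and 71.5% in the positive ones. Levels between genes are therefore given as protein-coding TPM, that is, deposited TPM rescaled to 1000000 over protein-coding genes, a choice made after seeing these shares.

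Histone RNA was present in every library, and its total did not separate the groups in CPM. The 67 genes together had 9616 and 11014 estimated counts in the negative libraries and 7586 and 11733 in the positive ones. This was 519 and 635 CPM against 399 and 597 CPM, or 577 ± 82.3 CPM against 498 ± 140.1 CPM (SD, n = 2 each). The groups overlapped, and the log2 ratio of the means was -0.21, smaller than the spread within the positive group. As a share of protein-coding TPM, histone RNA made up 0.188% and 0.204% in the negative libraries and 0.141% and 0.186% in the positive ones. On that scale the groups did not overlap, but the gap between 0.188% and 0.186% was small beside the distance between the positive libraries.

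By class, the H2A sum was the one that stood apart. H2A RNA was at 171 and 151 CPM in the negative libraries and at 102 and 95.9 CPM in the positive ones. The means were 161 ± 14.1 CPM and 99.1 ± 4.63 CPM (SD, n = 2), a log2 ratio of -0.70. Both positive libraries were below both negative libraries, and the difference was larger than the SD of either group. In protein-coding TPM the H2A sums were 715 and 661 against 464 and 452, again without overlap. In deposited TPM, which moves with the unequal protein-coding shares, the groups overlapped and the log2 ratio was -0.35. Class sums were given no test.

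The sums of the other 4 classes overlapped between the groups. H1 was at 114 and 170 CPM in the negative libraries and at 106 and 234 CPM in the positive ones, with both extremes in the positive group. H2B was at 36.4 and 106 CPM against 49.8 and 69.8 CPM, so both extremes were in the negative group. H3 was at 102 and 95.0 CPM against 67.3 and 99.0 CPM. H4 was at 95.4 and 113 CPM against 73.7 and 98.3 CPM. The log2 ratios of the means were 0.26 for H1, -0.25 for H2B, -0.25 for H3 and -0.28 for H4. Without Mmp3-positive replicate 2 the H1 ratio was -0.42, and without Mmp3-negative replicate 2 the H2B ratio was 0.72, so 1 library set the direction of each.

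**Figure D1:**
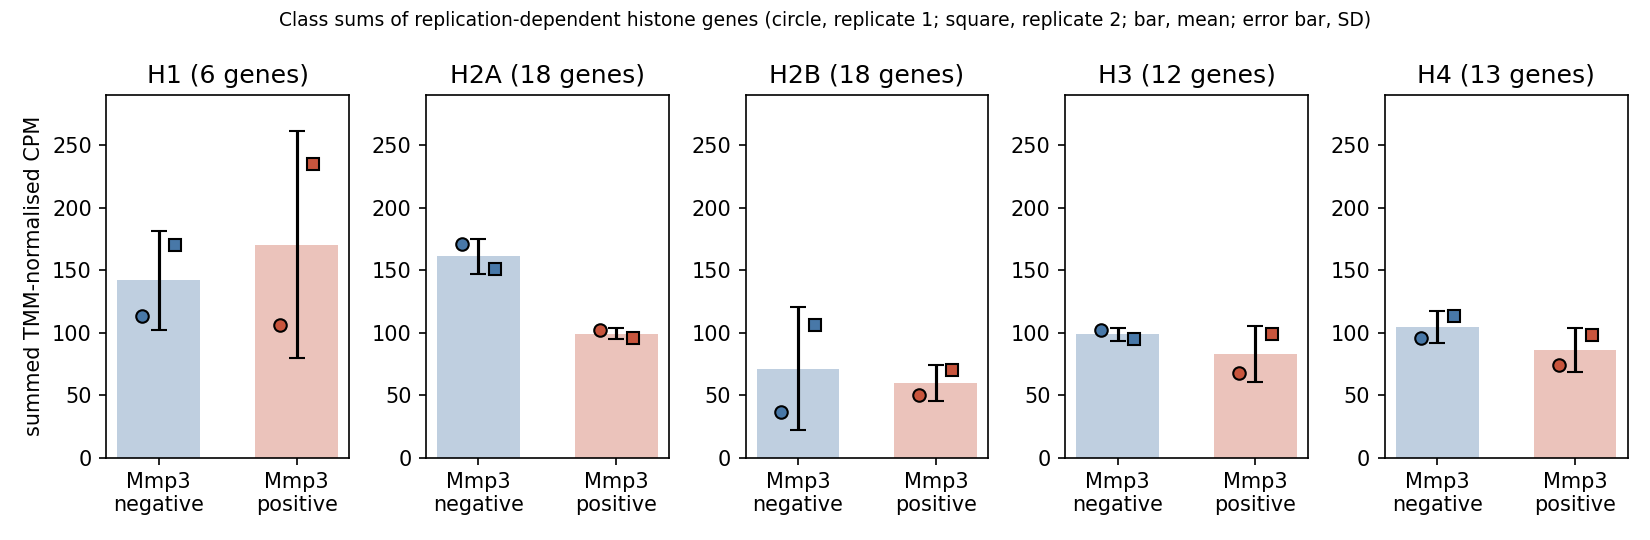
Summed level of each histone class in the 4 libraries, in CPM on a linear axis that starts at 0, with a point per library a bar for the group mean and an error bar for the SD (n = 2). The H2A points of the Mmp3-positive group (102 and 95.9 CPM) lie below those of the Mmp3-negative group (171 and 151 CPM), while the points of the other 4 classes overlap between the groups.

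Per length of the annotated transcripts, the nucleosome classes did not stand at equal levels. In protein-coding TPM, H2B was at 98.8 and 388 in the negative libraries and at 206 and 274 in the positive ones, and it was below H2A in all 4 libraries. H3 was at 482 and 267 against 320 and 343. H4 was at 467 and 556 against 299.7 and 498. H1, of which a nucleosome binds fewer molecules than of each core histone, was at 116 and 169 against 117 and 293. On this scale H1 was the lowest class in Mmp3-negative replicate 2 and in Mmp3-positive replicate 1, and H2B was the lowest in the other libraries. The order depends on the annotated lengths. The models of Hist1h1c, Hist1h1e and Hist1h1d run 840, 1153 and 4884 bases past the stem-loop, and that of Hist2h2aa2 runs 35. In CPM, H1 was above H4 in all 4 libraries. The class make-up thus differed between libraries of the same group, most plainly for H2B in the negative group.

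**Figure D2:**
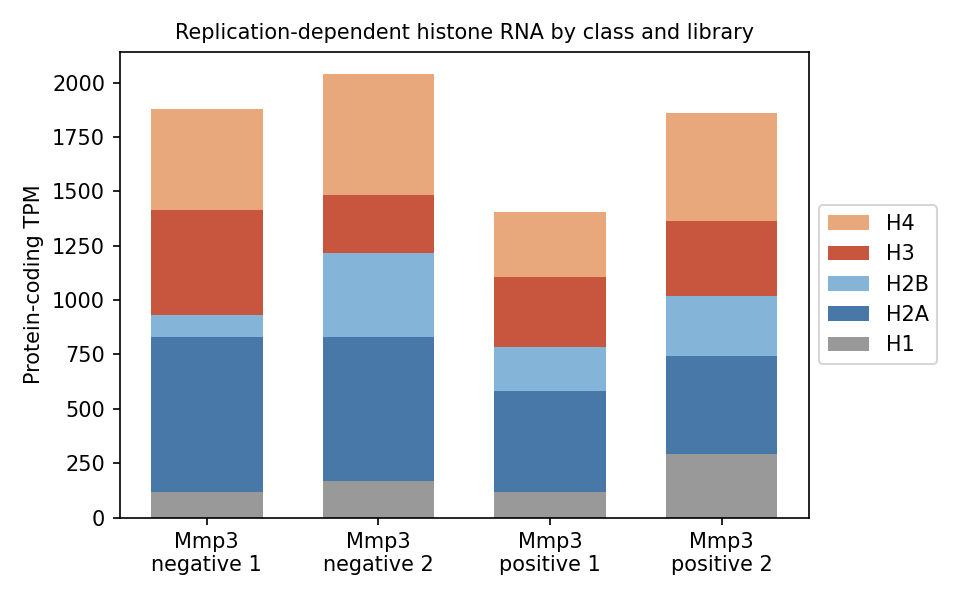
Histone RNA of each library, stacked by class, in protein-coding TPM on a linear axis from 0. The totals run from 1406 in Mmp3-positive replicate 1 to 2041 in Mmp3-negative replicate 2, and the H2A band is wider in the 2 Mmp3-negative libraries than in the 2 Mmp3-positive ones.

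At the level of single genes, no replication-dependent histone gene passed the test. Of the 67 genes, 42 passed the filter on low counts and were tested, 12 had counts but did not pass the filter, and 13 were at 0 in all 4 libraries. In edgeR's quasi-likelihood test 0 of the 42 were called at an adjusted p of 0.05, and the lowest adjusted p among them was 0.480. Over all 14185 genes 3 were called (0.0211%), 1 higher (0.00705%) and 2 lower (0.0141%) in Mmp3-positive cells. At an unadjusted p of 0.05, 4 of the 42 passed (9.52%), near the 8.87% of all genes tested. DESeq2's Wald test called 4 of the 42 (9.52%), all higher, against 9.64% of all genes in either direction, 5.46% higher and 4.18% lower. limma on log2(TPM + 1) called 0, with 4 at an unadjusted p of 0.05.

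The 4 genes called by DESeq2 were Hist1h2ac, Hist2h2ab, Hist1h2bk and Hist1h2bl. They were at 0 in both negative libraries, so they passed the filter only through the positive group and had to differ. Their counts are described with their classes below.

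Fold changes of the tested genes lay on both sides. The median log2 fold change of the 42 genes was -0.29, beside 0.02 over all genes tested. Its sign depended on the fit: it was 0.31 in limma on log2(TPM + 1), where the median of all genes was 0.29, 0.05 with the replicate number as a block, and 0.49 without Mmp3-negative replicate 2. It was above 0 for 17 of the 42 (40.5%), beside 51.1% of all genes. By class, 4 of 5 tested H1 genes, 3 of 9 H2A genes, 5 of 9 H2B genes, 3 of 8 H3 genes and 2 of 11 H4 genes were above 0. The class medians were 0.25, -0.54, 0.03, -0.20 and -0.47. In CPM, 6 of the 42 were higher without overlap in the positive libraries (14.3%, beside 22.5% of all genes) and 9 were lower without overlap (21.4%, beside 17.3% of all genes). The shares are near those of all genes tested.

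Expression of single histone genes was patchy. Counts were found for 33 and 36 of the 67 genes in the negative libraries and for 42 and 43 in the positive ones. The whole series went the same way, at a stricter cut-off of 10 counts. It was reached by 12953 and 12697 genes in the negative libraries, against 14382 and 13720 in the positive ones. The larger number in the positive group was thus not limited to histone genes. Only 20 of the 67 genes had counts in all 4 libraries, 34 were at 0 in 1 to 3 of them, and 8 of these had counts in exactly 1 library. Of the 42 tested genes, 22 were at 0 in at least 1 library (52.4%), against 3079 of the 14185 genes tested (21.7%). A gene at 0 may still be present at up to 3 counts, which is 0.153 to 0.173 CPM in these libraries. This limit covers counting error only.

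Replicates of a group differed more for histone genes than for other genes. The median difference between replicates, in log2 of CPM plus 0.5 and without sign, was 1.42 in the negative group and 1.10 in the positive group for the 42 genes. Over all genes tested, which were not matched to them in level, it was 0.760 and 0.479. The class medians in the negative group ran from 0.584 for H2A to 3.46 for H4, and in the positive group from 0.503 for H2A to 1.27 for H4. Genes with under 50% unique words had medians of 0.850 and 1.28, against 2.09 and 1.09 for the 19 tested genes with at least 50%. These were lower in the negative group and higher in the positive group. The part of shared reads was not tested. Of the 37 genes with at least 50 counts in a library of the negative group, 13 (35.1%) were at 0 in the other one, beside 12.01% of such genes overall. In the positive group this was 7 of 37 (18.9%), beside 4.58%.

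**Figure D3:**
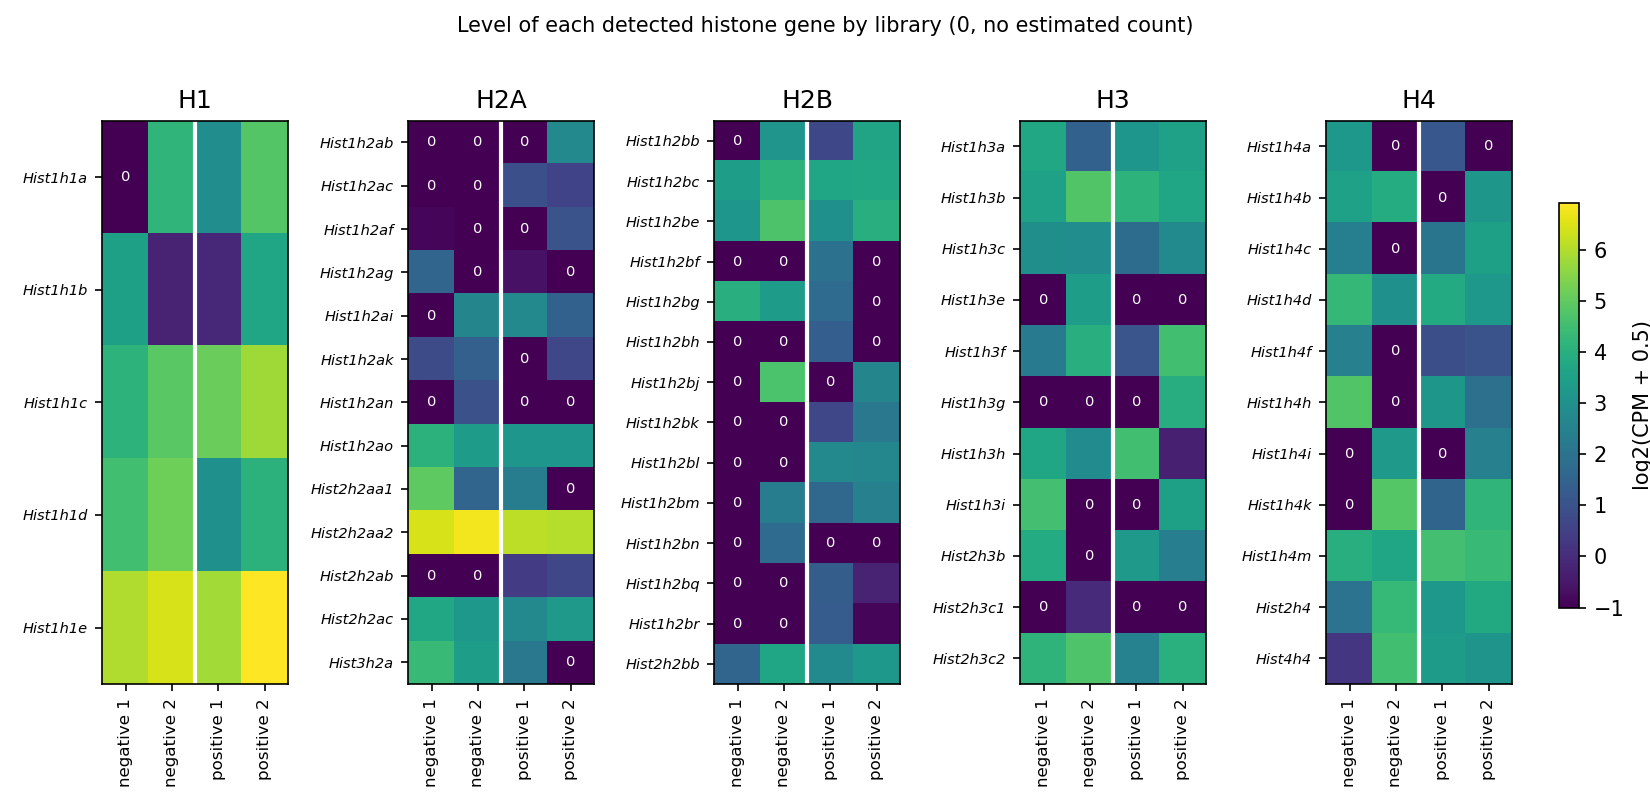
Levels of the histone genes with counts, by class, 1 row per gene and 1 column per library, with CPM shown as colour on a log scale. Some rows vary widely within a group, such as Hist1h4k (0 and 28.0 CPM) and Hist1h4h (26.9 and 0 CPM) in the Mmp3-negative libraries. Hist2h2aa2 (65.2 to 111 CPM) and Hist1h1e (56.8 to 122 CPM) are high in every library.

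The linker histone genes were the best resolved, with most words unique. Hist1h1e, the most abundant H1 gene by length, lies at chr13:23620629-23622558. It was at 63.2 and 87.1 CPM in the negative libraries and at 56.8 and 122 CPM in the positive ones. The lowest and the highest value were both in the positive group, and the log2 fold change was 0.25 (SE 0.42). Of its words 24.5% are shared with Hist1h2be, whose annotation overlaps it on the same strand.

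Hist1h1c, at chr13:23738808-23740367, encodes a linker histone also made outside S phase. It was at 16.9 and 29.3 CPM in the negative libraries and at 34.6 and 55.9 CPM in the positive ones. The groups did not overlap, with means of 23.1 ± 8.77 and 45.2 ± 15.0 CPM (SD, n = 2). By edgeR's quasi-likelihood test the log2 fold change was 0.97 (SE 0.51, adjusted p = 0.732), so the difference did not pass.

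Hist1h1d, at chr13:23553262-23560686, went the other way, at 22.5 and 35.6 CPM in the negative and 7.37 and 16.5 CPM in the positive libraries. The groups did not overlap, and its log2 fold change was -1.28 (SE 0.73, edgeR adjusted p = 0.792). Its transcript model is 7425 bases long, and per length its level was 7.74 protein-coding TPM at most. Hist1h1a was at 0 and 17.6 CPM against 6.84 and 27.8 CPM, a log2 fold change of 0.98 with an SE of 2.23. It has 99.7% unique words, so few reads of another gene could be shared with it. Hist1h1b was at 11.01 and 0.346 CPM against 0.421 and 12.5 CPM. It was high in 1 library of each group and close to 0 in the other. Hist1h1t, the testis form, was at 0 in all 4 libraries.

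Most H2A RNA was assigned to a single gene of the chromosome 3 cluster. Hist2h2aa2, ENSMUSG00000063954 at chr3:96239749-96240276, was at 399.5 and 488 protein-coding TPM in the negative libraries and at 319 and 292 in the positive ones. It held 15.7% to 23.9% of all histone RNA by length. In CPM it was at 86.3 and 111 against 70.6 and 65.2, with both positive libraries below both negative ones. The means were 98.4 ± 17.2 and 67.9 ± 3.79 CPM (SD, n = 2). Its log2 fold change was -0.54 (SE 0.26), with an unadjusted p of 0.0884 and an adjusted p of 0.681 in edgeR's quasi-likelihood test.

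None of the words of Hist2h2aa2 is unique, and all of them occur in Hist2h2aa1, its copy on the opposite strand at chr3:96245497-96246082. Hist2h2aa1 was at 30.9 and 2.48 CPM in the negative libraries and at 4.63 and 0 CPM in the positive ones. The sum of the pair, chosen after its values were seen, does not depend on how reads were divided between them. It was at 117 and 113 CPM in the negative libraries and at 75.2 and 65.2 CPM in the positive ones. The means were 115 ± 2.90 and 70.2 ± 7.06 CPM (SD, n = 2), 1.64-fold lower in Mmp3-positive cells. In the negative group the SD of the pair was smaller than that of Hist2h2aa2 or Hist2h2aa1 alone (17.2 and 20.1 CPM). In the positive group it was larger than that of either gene (3.79 and 3.27 CPM).

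Without the pair, the 16 other H2A genes summed to 53.8 and 37.9 CPM in the negative and 27.2 and 30.6 CPM in the positive libraries, also without overlap. Of this, Hist3h2a on chromosome 11 had 20.0 and 10.1 CPM against 4.0 and 0 CPM. Its log2 fold change was -2.91 (SE 2.31, edgeR adjusted p = 0.921), and 32.1% of its words are shared with Trim17. With Hist3h2a left out as well, the 15 other genes summed to 33.8 and 27.9 CPM against 23.2 and 30.6 CPM, and the groups overlapped. The separation of the groups in the H2A sum thus rested on the Hist2h2aa pair and Hist3h2a. Hist3h2a and the sums without it were also chosen after their values were seen.

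Hist1h2ao was at 16.8 and 9.69 CPM in the negative libraries and at 8.47 and 8.50 CPM in the positive ones. It shares 93.8% of its words with Hist1h2ap, which was at 0 in every library. Hist2h2ac was at 13.2 and 8.94 CPM against 6.21 and 9.01 CPM, with overlap. Hist1h2ai was at 0 and 5.59 CPM against 6.16 and 2.24 CPM. None of these 3 genes passed the test.

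Hist1h2ac was at 0 in both negative libraries and at 1.42 and 1.02 CPM in the positive ones. Against the limit of 3 counts per library this is at least 7.29-fold higher, with a DESeq2 adjusted p of 0.0465 and an edgeR adjusted p of 0.480. Hist2h2ab, 1 of the 10 genes on chromosome 3, was likewise at 0 and at 0.789 and 1.12 CPM, at least 5.70-fold higher (DESeq2 adjusted p = 0.0460). Both passed the filter on the strength of the positive libraries alone, and the limit of 3 counts does not cover reads assigned to other genes.

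H2B genes were low and uneven. Hist2h2bb, at chr3:96269752-96270132, was the most abundant by length on average and has 92.0% unique words. It was at 2.54 and 12.4 CPM in the negative libraries and at 6.42 and 8.81 CPM in the positive ones, and both extremes were in the negative group. Hist1h2bj was at 0 and 25.3 CPM against 0 and 5.60 CPM, and Hist1h2bb at 0 and 8.30 CPM against 1.16 and 12.02 CPM. In these 3 genes the second library of each group was the higher one. Hist1h2bc, with a spliced transcript as its only model and picked after its values were seen, was at 10.1 and 17.0 CPM against 12.4 and 12.8 CPM.

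Hist1h2bg was at 15.1 and 9.63 CPM in the negative libraries and at 2.89 and 0 CPM in the positive ones, without overlap. Its log2 fold change was -3.09 with an SE of 2.40 (edgeR adjusted p = 0.917). Hist1h2bl and Hist1h2bk were at 0 in both negative libraries. Hist1h2bl was at 6.21 and 5.91 CPM in the positive ones, with a mean 36.2-fold above the limit of 3 counts. Its DESeq2 adjusted p was 0.00260 and its edgeR adjusted p was 0.480. Only 11.4% of its words are unique, and 78.9% occur in Hist1h2br. Hist1h2bk, with 24.7% unique words, was at 1.11 and 4.02 CPM, with a mean 15.3-fold above that limit (DESeq2 adjusted p = 0.0414). Hist1h2bl and Hist1h2bk passed the filter only through the positive group, so their p-values are no evidence of a difference. The limit of 3 counts does not cover reads assigned to other copies, and the H2B sums of the groups overlapped.

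Among the 8 tested H3 genes the lowest adjusted p of edgeR's quasi-likelihood test was 0.938. Hist1h3b, at chr13:23752267-23752886, was at 11.1 and 26.9 CPM in the negative libraries and at 16.9 and 12.2 CPM in the positive ones. Hist1h3a was at 12.8 and 2.25 CPM against 8.53 and 11.1 CPM. Hist1h3c, with 7.28 and 6.98 CPM against 3.0 and 6.41 CPM, was lower without overlap by a margin smaller than the distance between the positive libraries.

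Hist1h3h and Hist1h3i share 85.3% of their words, so the division of reads between them is uncertain. Hist1h3h was at 12.2 and 6.57 CPM in the negative and 22.8 and 0.305 CPM in the positive libraries. Hist1h3i was at 23.0 and 0 CPM in the negative and at 0 and 10.9 CPM in the positive libraries. In Mmp3-negative replicate 2 and Mmp3-positive replicate 1 the RNA was assigned to the first, and in Mmp3-positive replicate 2 almost wholly to the second. Their sum was 35.2 and 6.57 CPM against 22.8 and 11.3 CPM, which still differed more within than between groups.

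On chromosome 3, Hist2h3c2 was at 17.4 and 26.3 CPM in the negative libraries and at 5.26 and 15.8 CPM in the positive ones. The groups did not overlap, and the log2 fold change was -1.05 (SE 0.89, edgeR adjusted p = 0.938). Hist2h3b, which shares 80.6% of its words with Hist2h3c2, was at 14.2 and 0 CPM against 9.16 and 4.79 CPM. Among the untested H3 genes, Hist1h3g had 292 counts in Mmp3-positive replicate 2 and Hist1h3e had 178 in Mmp3-negative replicate 2, and neither had any in the other libraries.

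The H4 genes are known for encoding the same protein from different nucleotide sequences. Hist1h4k, at chr13:21750194-21750505, was the most abundant by length on average, at 0 and 301 protein-coding TPM in the negative libraries and at 26.9 and 193 in the positive ones. It was high in the second library of each group and low or at 0 in the first. Hist1h4h was at 26.9 and 0 CPM in the negative libraries and at 8.68 and 3.31 CPM in the positive ones, and Hist1h4a was at 8.90 and 0 CPM against 1.74 and 0 CPM. For these 2 genes the first library of each group was the higher one.

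Hist1h4m, at chr13:21811746-21812147, had replicates close to each other. It was at 15.5 and 12.2 CPM in the negative libraries and at 23.2 and 20.2 CPM in the positive ones, without overlap. The means were 13.8 ± 2.35 and 21.7 ± 2.16 CPM (SD, n = 2), and the log2 fold change was 0.65 (SE 0.69, edgeR adjusted p = 0.988). It shares 91.7% of its words with Hist1h4n, which was at 0 in all libraries, so the sum of both has the same values. Hist1h4b was at 11.2 and 14.4 CPM against 0 and 8.76 CPM, lower without overlap, with a log2 fold change of -1.54 (SE 2.30). Hist1h4d was at 18.8 and 7.38 CPM against 13.8 and 8.91 CPM.

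The genes lie in 4 places. Chromosome 13 holds 54 of them, between 21715763 and 23934851, chromosome 3 holds 10, between 96219865 and 96270132, chromosome 11 holds 2 and chromosome 6 holds 1, Hist4h4. By protein-coding TPM, chromosome 13 gave on average 66.1% of histone RNA and chromosome 3 gave 33.1%. The chromosome 13 sum was at 330 and 422 CPM in the negative libraries and at 274 and 471 CPM in the positive ones, with overlap. The chromosome 3 sum was at 168 and 180.5 CPM against 112 and 119 CPM, and both positive libraries were lower. The means were 174 ± 8.83 and 115 ± 4.73 CPM (SD, n = 2). In protein-coding TPM it was at 717 and 701 against 485 and 476, which is 1.48-fold lower.

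Much of that difference was the Hist2h2aa pair again. The 8 other genes on chromosome 3 summed to 50.9 and 67.5 CPM in the negative libraries and to 36.6 and 53.3 CPM in the positive ones, which overlapped. In protein-coding TPM they were at 194 and 203 against 148 and 183, without overlap. Over all members but the pair, 65 genes, the sums were 402 and 522 CPM against 324 and 532 CPM, and both extremes were in the positive group.

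Markers of other cell types also stood apart between these libraries. In the Mmp3-negative libraries the 6 mural markers summed to 661 and 555 CPM, the 5 endothelial markers to 189 and 156 CPM, the 5 macrophage markers to 165 and 88.3 CPM, the 3 pan-leukocyte markers to 21.5 and 68.2 CPM and the 3 erythroid markers to 21.4 and 10.3 CPM. In the Mmp3-positive libraries the sums were 84.5 and 82.8 CPM for mural, 95.2 and 88.1 CPM for endothelial, 27.9 and 27.0 CPM for macrophage, 1.53 and 0.916 CPM for pan-leukocyte and 3.79 and 5.86 CPM for erythroid markers. Single markers did not all go this way. Log2 fold changes were below 0 for 5 of 6 tested mural, 3 of 4 endothelial, 5 of 5 macrophage, 3 of 3 pan-leukocyte and 2 of 3 erythroid markers. Lower without overlap were 5, 3, 3, 3 and 2 of them. Of the 3 pan-leukocyte markers, Coro1a and Laptm5 were at 0 in both positive libraries and none was at 0 in the negative ones. Among macrophage markers Adgre1 was at 0 in both positive libraries. Of the erythroid markers Hba-a1 was at 0 in both positive libraries, while Alas2 was at 0 in both negative ones and at 2.74 and 3.46 CPM in the positive ones. Emcn, an endothelial marker, was at 0 in 3 of the 4 libraries. Both neutrophil markers, S100a8 and S100a9, were at 0 in all libraries, as was Cd79a among the 4 lymphoid markers, which summed to 1.27 to 8.36 CPM with overlap. The fibroblast and adipocyte sums overlapped. The 2 mesothelial markers summed to 0.701 and 22.1 CPM in the negative libraries and to 0 in both positive ones. The 2 Schwann markers summed to 7.28 and 5.65 CPM against 2.26 and 1.12 CPM. In each of these 2 lists only 1 marker was tested. The mural, endothelial, macrophage, pan-leukocyte, erythroid, mesothelial and Schwann sums moved with the H2A and chromosome 3 sums. Their part in those differences was not tested. In such bulk samples, fewer cells of a type and less RNA per cell cannot be told apart.

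Most replication-independent histone genes are transcribed throughout the cell cycle into polyadenylated messages, and their proteins replace the canonical ones outside S phase. Of 11 such genes, 10 were tested and edgeR called 0, with 1 at an unadjusted p of 0.05. DESeq2 called 1 higher, H1fx, and 1 lower, H2afy (adjusted p = 0.0466 and 0.0481). Their folds were above 0 for 5 and below 0 for 5, with a median log2 fold change of 0.09. H3f3b, 1 of 2 genes for H3.3, was the most abundant at 598 and 565 protein-coding TPM in the negative libraries and at 543 and 567 in the positive ones. In CPM it was at 262 and 251 against 256 and 253, a log2 fold change of -0.01 (SE 0.16). All 4 values lay within 251 to 262 CPM.

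H2afy encodes macroH2A1, a large H2A variant. It was at 166 and 157 CPM in the negative libraries and at 112 and 127 CPM in the positive ones, without overlap, with a log2 fold change of -0.44 (SE 0.20, edgeR adjusted p = 0.641). H2afj was at 60.6 and 24.9 CPM against 43.8 and 28.8 CPM. H1fx was at 0 in both negative libraries and at 1.11 and 0.662 CPM in the positive ones, at least 5.28-fold higher than the limit of 3 counts. It too passed the filter only through the positive group.

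Replication-dependent genes gave a large part of the RNA of their class in every library. The 18 replication-dependent H2A genes made up 55.2% and 59.1% of H2A RNA in the negative libraries and 52.6% and 49.2% in the positive ones, counted in protein-coding TPM against 6 independent H2A genes. Among these 6, H2afx also has the stem-loop letters in a transcript, so the division is not strict. The 12 H3 genes made up 39.4% and 27.2% against 34.3% and 34.6%, beside H3f3a, H3f3b and Cenpa. For H2A both positive libraries were below both negative ones by a few percentage points. For H3 both extremes were in the negative group. The 2 independent H1 genes, H1f0 and H1fx, together had 6.05 and 27.9 protein-coding TPM in the negative libraries and 41.6 and 40.6 in the positive ones.

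**Figure D4:**
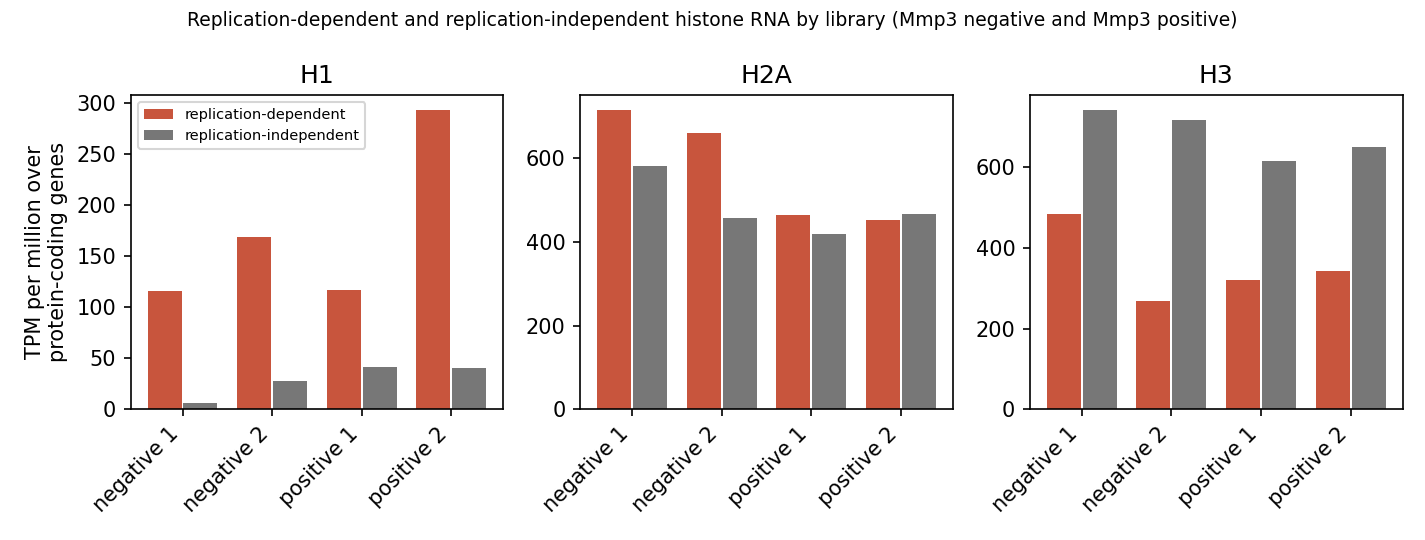
Summed protein-coding TPM of replication-dependent and replication-independent genes for H1, H2A and H3 in each library, on linear axes from 0. Independent H3 genes are above the dependent ones in all 4 libraries, dependent H1 genes are far above the independent ones, and for H2A the 2 sums are of similar size.

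Genes of the machinery that makes histone messages were measured too, and edgeR called none of them. Of 18 genes for processing of the 3-prime end, 14 had a log2 fold change above 0 and 4 below, with a median of 0.41. edgeR called 0 of them, 1 was at an unadjusted p of 0.05, and the lowest adjusted p was 0.504. DESeq2 called that gene alone, higher (adjusted p = 0.0235). It was Casp8ap2, which encodes FLASH, a partner of the U7 particle. Its level was 5.56 and 11.01 CPM in the negative libraries and 23.999 and 40.4 CPM in the positive ones, with a log2 fold change of 1.96 (SE 0.74). Both positive libraries were more than 2 times above both negative ones. Slbp, named here for its role and with its values seen, was at 19.9 and 53.5 CPM against 47.7 and 43.3 CPM, with overlap.

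Sympk, the scaffold of the cleavage complex, was at 376 and 386 CPM in the negative libraries and at 434 and 332 CPM in the positive ones. Srrt, which links the cap-binding complex to processing, was at 394 and 346 CPM against 327 and 327 CPM. Snrpb, a core protein of small nuclear RNPs, was at 149 and 181 CPM against 175 and 210.2 CPM. Ncbp1, a subunit of the cap-binding complex, was at 67.4 and 85.8 CPM against 42.4 and 68.4 CPM.

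Of 12 genes for histone gene transcription and entry into S phase, 11 were tested. Fold changes were above 0 for 8 and below 0 for 3, with a median log2 fold change of 0.48. edgeR called 0, 1 was at an unadjusted p of 0.05 and the lowest adjusted p was 0.480. DESeq2 called 1 higher, Ccne2, and 1 lower, E2f2 (adjusted p = 0.0327 and 0.0248). Ccne2, a cyclin E that activates CDK2, was the gene at an unadjusted p of 0.05. It was at 0 in both negative libraries and at 1.95 and 3.26 CPM in the positive ones, at least 15.5-fold higher. Like the histone genes at 0 there, it was tested only through the positive group. E2f1, an activator of S-phase genes, was at 20.7 and 49.0 CPM against 36.8 and 85.1 CPM, with overlap. E2f2, a relative of it, was at 7.34 and 22.9 CPM against 1.79 and 1.99 CPM, a log2 fold change of -2.997 (edgeR adjusted p = 0.638). Hinfp, a transcription factor of H4 genes, was at 27.7 and 4.56 CPM against 26.7 and 40.2 CPM, and Cdt1, which loads the replicative helicase, at 78.9 and 81.1 CPM against 63.5 and 71.4 CPM.

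All 20 genes for histone chaperones and deposition were tested, 13 with a log2 fold change above 0 and 7 below, and the median was 0.11. edgeR called 0, and 2 were at an unadjusted p of 0.05. DESeq2 called Supt6 higher and Cabin1 lower (adjusted p = 0.0487 and 0.0458). Rbbp7, a histone-binding subunit of several complexes, was at 85.8 and 96.3 CPM in the negative libraries and at 119.7 and 163 CPM in the positive ones (edgeR adjusted p = 0.542). Supt6, a histone chaperone of transcription, was at 239 and 265 CPM against 347 and 321 CPM (edgeR adjusted p = 0.563). Their log2 fold changes were 0.63 and 0.41, both without overlap. Cabin1, of the complex that deposits H3.3, was at 386 and 407 CPM against 330 and 334 CPM, and Ipo4, an importer of histones, at 248 and 438 CPM against 462 and 494 CPM.

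Genes of DNA replication gave a positive median, 0.33 on the log2 scale, over 24 tested of 25, with 18 above 0 and 6 below. edgeR called 0 of these, 3 were at an unadjusted p of 0.05 and the lowest adjusted p was 0.480. DESeq2 called 1 higher, Rfc4, and 1 lower, Tk1, a thymidine kinase (adjusted p = 0.0388 and 0.0377). Tk1, named because of that call, was at 41.9 and 60.7 CPM in the negative libraries and at 20.1 and 27.6 CPM in the positive ones. Mcm2, a subunit of the replicative helicase, was at 71.4 and 83.8 CPM in the negative libraries and at 113 and 129 CPM in the positive ones. Its log2 fold change was 0.64 (SE 0.24, edgeR adjusted p = 0.496). Pold1, the catalytic subunit of DNA polymerase delta, was at 103 and 150.2 CPM against 133 and 187 CPM. Rfc4, of the clamp loader, was at 0 in both negative libraries and at 4.68 and 1.02 CPM in the positive ones. Rfc4 thus passed the filter only through the positive group, and its p-value is no evidence of a difference. Uhrf1, which keeps DNA methylation after replication, was at 77.1 and 143 CPM against 87.8 and 171 CPM. Pold1 and Uhrf1 were higher in the second library of each group.

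For G2 and mitosis, 23 of 25 genes were tested, 11 above 0 and 12 below, and the median log2 fold change was -0.0019. edgeR called 0, and 4 were at an unadjusted p of 0.05. DESeq2 called 4 higher and 0 lower, Aurka, Ccnb1, Kif20a and Nusap1, all of them at or near 0 in both negative libraries, so that they passed the filter through the positive group. Mki67, which marks cycling cells, was at 14.0 and 35.2 CPM in the negative libraries and at 14.2 and 19.9 CPM in the positive ones. Top2a, topoisomerase II alpha, was at 14.8 and 31.2 CPM against 4.63 and 32.6 CPM. Neither separated the groups. Kif20a and Nusap1, of the mitotic spindle, were at 0 in both negative libraries, and at 8.95 and 11.5 CPM and at 4.16 and 3.05 CPM in the positive ones. Foxm1, an activator of mitotic genes, was at 9.71 and 1.96 CPM against 14.6 and 29.8 CPM. With an offset for transcript length the list medians were 0.66 for G2 and mitosis, 0.0084 for 3-prime end processing and 0.062 for histone gene transcription, and no call was gained. With the replicate number as a block the G2 and mitosis median was 1.77.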

How the data were processed

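The submitters' processing notes name kallisto 0.45.0 and GRCm38. Per the file headers, the deposited tables give an estimated count, a TPM and lengths for each of 115270 transcripts. The transcript set, strand setting and trimming are not given in the sources used here. Transcripts were matched by identifier to GENCODE M21: 113580 matched, and 1690 (0.729% to 2.08% of counts) were left out. The estimated counts, summed and rounded gene by gene, were filtered with filterByExpr (minimum count 10), scaled by TMM and tested with edgeR 4.0.16 (quasi-likelihood, two-sided, Benjamini-Hochberg, threshold 0.05, R 4.3.3), with no covariate. The SE is the size of the fold change (log2) divided by the square root of F. CPM divides by TMM effective sizes of 17342641 to 19641520 counts in tested genes. The scripts were tested on simulated data. Sums and plots used Python 3.11.15 and pandas 2.3.3.

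Members and lists were chosen with earlier results of these data known. Named members were, per class, the 5 with the highest mean TPM and the 3 with the smallest p, and any called. Named list genes were those called, the 2 with the smallest p and the 3 with the highest mean CPM. Not all are printed. Alternatives were DESeq2 1.42.0, limma 3.58.1 on log2(TPM + 1) with a pseudocount of 1, other scalings, no filter, a replicate block, a length offset, protein-coding genes only, single-exon transcripts, leaving out the most abundant member of a class, and leaving out each library. Protein-coding TPM was added after seeing the data. No sequences beyond the annotated transcripts were used.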

Additional observations from a re-analysis of the deposited data

Results flagged for a closer look

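Hist1h2aj, annotated as an unprocessed pseudogene and so outside the 67 genes, had 55.3 estimated counts in Mmp3-negative replicate 2 and 0 in the other 3 libraries. It was picked up because it is a signal outside the compared genes, above the limit of 3 counts that a count of 0 allows. The other noncoding genes with such symbols, Hist1h2al and Hist3h2bb-ps, were at 0 in all 4 libraries.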

How the results depend on the processing

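Over all genes, 1 was called higher and 2 lower. Higher calls numbered 4 with no filter, 775 with DESeq2, 0 with limma and 1 to 237 leaving out 1 library. Lower calls numbered 23 with no filter, 4 with the replicate block, 0 with the length offset, 593 with DESeq2, 0 with limma and 1 to 116 leaving out 1 library. Histone genes called were 0, but 4 with DESeq2 and 0 to 1 leaving out 1 library (Hist1h1a without Mmp3-negative replicate 2, edgeR adjusted p = 0.0263). The H2A log2 ratio was negative under all 11 alternatives: -0.35 in summed TPM, -0.59 in protein-coding TPM, -1.001 without Hist2h2aa2 and -0.79 to -0.61 leaving out 1 library. Leaving out 1 library could not change the sign, since both positive sums were below both negative ones. Keeping only single-exon transcripts could not change it either, since every H2A transcript has 1 exon. Those alternatives are no check of the direction. The sum without Hist2h2aa2 still held its copy Hist2h2aa1. Without the pair the positive mean was 0.63 times the negative one, and without Hist3h2a as well the groups overlapped. H3 was 0.16 in summed TPM. Leaving out 1 library gave -0.42 to 0.73 for H1, -0.83 to 0.72 for H2B and -0.55 to 0.0035 for H3.

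List medians were 0.0084 for 3-prime end processing, 0.062 for histone gene transcription and 0.66 for G2 and mitosis with the length offset. G2 and mitosis was at 1.77 with the replicate block and 0.59 with limma. Leaving out 1 library gave 0.11 to 0.54, 0.099 to 0.75 and -0.21 to 2.03 for these 3 lists.

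Of 31 named members, 15 kept their direction under every alternative. Leaving out 1 library could hardly reverse genes whose groups did not overlap in CPM, such as Hist1h1c and Hist2h2aa2. Hist1h2ac, Hist2h2ab, Hist1h2bk and Hist1h2bl, at 0 in both negative libraries, could only be higher. A kept direction in such genes was thus largely fixed in advance. Reversed log2 fold changes for Hist2h2bb were -0.015 with DESeq2 size factors, -0.0033 with the length offset and -0.015 with DESeq2's test. In limma they were 0.0051 for Hist1h3b, -1.13 for Hist1h3h, 2.15 for Hist2h3b, 0.19 for Hist1h4d, 1.45 for Hist1h4h and 1.80 for Hist1h4k. With the replicate block they were -1.68 for Hist1h3h, 3.22 for Hist2h3b, 2.23 for Hist1h4h and 2.45 for Hist1h4k. Leaving out 1 library, they ran from -0.37 to 11.37 for Hist1h1a, -3.73 to 4.19 for Hist1h1b, -0.41 to 0.70 for Hist1h1e, -0.42 to 9.32 for Hist1h2ai, -1.84 to 9.98 for Hist1h2bb, -10.86 to 8.75 for Hist1h2bj, -0.71 to 1.59 for Hist2h2bb, -0.38 to 2.12 for Hist1h3a, -0.89 to 0.40 for Hist1h3b, -4.91 to 1.27 for Hist1h3h, -10.72 to 9.68 for Hist1h3i, -1.03 to 10.02 for Hist2h3b, -9.36 to 7.03 for Hist1h4a, -0.73 to 0.61 for Hist1h4d, -2.17 to 9.80 for Hist1h4h and -2.50 to 10.60 for Hist1h4k. Fits against libraries at 0 depend on the prior count and are no bounds. The cause of these differences was not tested.

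Over the tested genes, the deviations of the Set1 libraries from their group means had a correlation of 0.026 between the groups. With 2 libraries per group the Set2 deviations mirror these and add nothing. The number was not taken to pair the libraries. Positive over negative within Set1 and Set2, the log2 ratio was -0.38 and -0.088 for all members, -0.74 and -0.66 for H2A, -0.37 and -0.20 for H4 and -0.47 and -0.34 for the chromosome 3 genes without the Hist2h2aa pair, while H1, H2B, H3 and chromosome 13 differed in direction between the sets. With 1 library left out, its partner was taken to vary as much as the other group did, and 15980 to 16358 genes were tested, against 14185.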
